A study of Mus musculus with 5 samples.

Results

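The genes of the PRC1.1 complex, the variant Polycomb assembly that contains Bcor, were followed in myeloid progenitors that had lost exons 9 and 10 of Bcor. The 10 genes were taken by symbol from a count table of 52550 genes: Bcor, its paralogue Bcorl1, and the subunits Pcgf1, Kdm2b, Rnf2, Ring1, Rybp, Yaf2, Usp7 and Skp1a. Each was found in exactly 1 row. They were listed by membership of the complex. The study measured 3′ RNA ends by QuantSeq in KL cells (Lin-cKit+Sca1-), a bone marrow population of committed myeloid progenitors isolated by flow sorting. There were 3 BcorΔE9-10 libraries (genotype scl-Cre-ERT +; Bcorfl/y) and 2 BcorWT libraries (scl-Cre-ERT +; Bcorwt/y), all collected 20 weeks after tamoxifen. In every mouse, 1 mg of tamoxifen had been injected into the peritoneum on each of 5 days, starting at 3 to 6 months of age, so by these labels the control mice carried the Cre transgene and received the drug as well. The y allele marks males. The Cre transgene is driven by stem cell control elements of Tal1 (Scl), so recombination was directed to stem cells and reached KL cells by descent; the text of the study describes the controls as carrying either the floxed allele or Cre alone, whereas the labels give Cre in all of them. The labels do not tie a library to an individual animal, and p-values here measure only the spread between these libraries.

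PRC1.1 places a single ubiquitin on lysine 119 of histone H2A, a mark associated with silent genes. Kdm2b recognises unmethylated CpG-rich DNA through its CxxC zinc finger, and the joined surfaces of Bcor (or Bcorl1) and Pcgf1 tether Kdm2b and Skp1 to a catalytic core built on Rnf2 (RING1B) or Ring1 (RING1A) with Rybp or Yaf2. Bcor contacts Pcgf1 through a C-terminal domain named PUFD, and loss-of-function lesions of BCOR occur in human myeloid malignancies.

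The conditional allele was examined first because it sets what a 3′ count of Bcor can show. Bcor lies on the minus strand of chromosome X (mm10, chrX:12036740-12160355). Exons were numbered on the principal annotated transcript, Bcor-202, which has 15 exons, 6839 bases and a protein of 1725 residues. The removed sequence consists of exon 9 (chrX:12047423-12047748, 326 bases) and exon 10 (chrX:12046856-12047113, 258 bases). The junctions are given on the coding strand because the joining of exon 8 to exon 11 is the designed difference between the groups. The intact junction has the last 30 bases of exon 8 followed by the first 30 of exon 9 in capitals, exon 10 is given whole, and the deleted junction has the same 30 bases of exon 8 followed by the start of exon 11, with the first stop codon of the new frame in capitals.
exons 8 and 9, intact: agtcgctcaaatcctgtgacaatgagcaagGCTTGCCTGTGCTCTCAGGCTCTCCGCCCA
exon 10: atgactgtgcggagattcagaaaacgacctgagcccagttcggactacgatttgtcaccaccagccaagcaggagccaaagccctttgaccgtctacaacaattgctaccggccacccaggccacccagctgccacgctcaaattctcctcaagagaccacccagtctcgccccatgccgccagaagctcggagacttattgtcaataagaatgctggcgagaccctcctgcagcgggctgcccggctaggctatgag
exons 8 and 11, deleted: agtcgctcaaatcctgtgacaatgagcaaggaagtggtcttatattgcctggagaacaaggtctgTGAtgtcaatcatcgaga
Exons 9 and 10 together hold 584 bases, which is not a multiple of 3, so that joining exon 8 to exon 11 shifts the reading frame. The shifted frame meets the TGA stop at base 36 of exon 11. By the annotation, the shortened protein would keep 1252 residues of the normal sequence, add 11 new ones and lose 473 residues (27.4% of the protein) from the C-terminus, where the PUFD domain lies. In Bcor-204, the other 15-exon transcript, the same pair of exons leaves a protein of 1297 residues. The 1726 bases downstream of exon 10, with a last exon of 1178 bases of which 889 are not coding, remain in the transcript of the deleted allele. A library that reads transcript ends therefore counts transcripts of the deleted and the intact allele alike, and the Bcor count does not check the genotype labels.

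**Figure D1:**
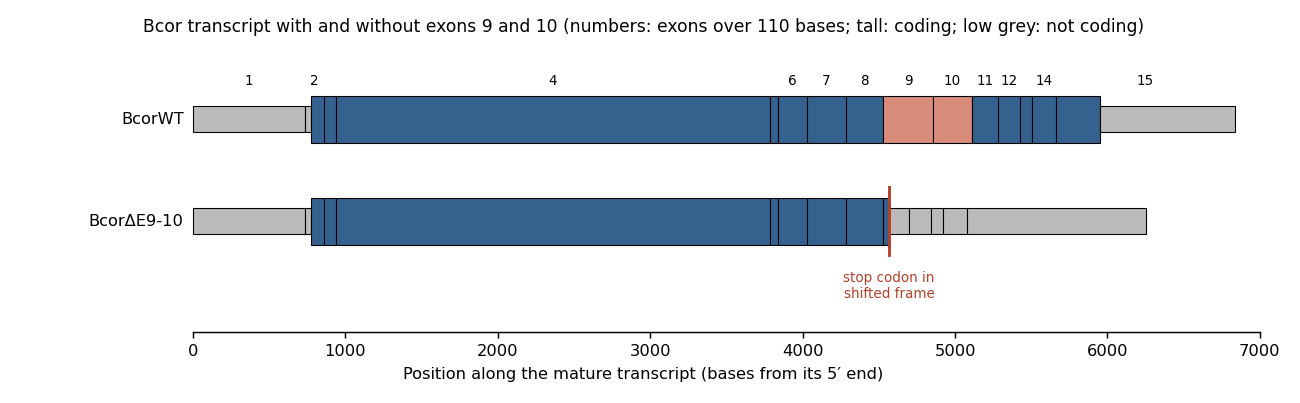
The Bcor-202 transcript drawn to scale in bases from its 5′ end, intact (BcorWT, top) and without exons 9 and 10 (BcorΔE9-10, bottom). Tall boxes are coding, low grey boxes are not coding, the removed exons are pale red, and the red line marks the stop codon of the shifted frame, after which 5 exon segments up to the transcript end become untranslated.

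The libraries held between 5998924 and 8303999 counts. Every gene of the KL progenitor marker list (Kit, Mpo, Elane, Prtn3, Ctsg, Ms4a3 and Calr) was detected in every library, at a summed 7305 to 8651 CPM (counts per 1e+06 counts) in BcorΔE9-10 and 7847 to 8843 CPM in BcorWT. Kit, the receptor used in the sort, was 2.70-fold higher in BcorΔE9-10 (limma adjusted p = 9.82e-05), with 307 to 452 counts against 128 and 132. Markers of mature neutrophils summed to 148961 to 172826 CPM in BcorΔE9-10 and 215553 to 227387 CPM in BcorWT, and 6 of 9 were lower, whereas Camp stood at 24879 ± 2094 CPM against 21095 ± 3793 CPM (SD; log2 fold change 0.25, limma adjusted p = 0.114). Basophil, mast cell and eosinophil markers summed to 392 to 564 CPM against 978 to 1269 CPM, with 5 of 7 lower. Some neutrophil and mast cell markers differed between the 2 BcorWT libraries. In libraries 1 and 2, Mmp8 was at 803 and 276 CPM and Cpa3 at 73.6 and 35.5 CPM. S100a8 was closer, at 116991 and 109726 CPM. Erythroid markers summed to 50.6 to 188 CPM against 20.4 to 54.9 CPM, with Car1 the only 1 of 6 tested that rose, Hba-a1, Hbb-bs, Hbb-bt and Car2 higher at an unadjusted p under 0.05 and Gata1 at a log2 fold change of -1.09, and Klf1 and Epor were at 0 in some libraries. Stem cell markers summed to 15.5 to 23.5 CPM against 11.1 to 12.5 CPM, megakaryocyte markers to 42.9 to 67.9 CPM against 25.6 to 44.1 CPM, B-cell markers to 10.6 to 20.9 CPM against 7.54 to 13.3 CPM and T-cell markers to 2.36 to 4.67 CPM against 1.92 to 4.11 CPM. Limma tested 3 of 6 stem cell, 4 of 5 megakaryocyte, 5 of 7 B-cell and 1 of 5 T-cell markers. It called none of those tested at an adjusted p under 0.05. Pf4 and Pax5 were under 0.05 unadjusted, and Mecom, Cd79a, Cd3e, Cd3g and Cd4 were at 0 in some libraries. In these bulk samples, fewer cells of a type and less RNA per cell cannot be told apart, and the part of these markers in the results on PRC1.1 genes was not tested.

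Of the 10 PRC1.1 genes, Bcor itself was the only one past the threshold, and it rose 1.72-fold. The intervals of Rnf2, Rybp, Yaf2 and Usp7 also lay above 0, but their adjusted p-values did not pass. All 10 genes passed the filter on low counts. At a limma adjusted p-value under 0.05, 1 of 10 was higher in BcorΔE9-10 and 0 were lower, beside 6.02% and 4.09% (10.1% in all) of the 11766 genes tested (708 higher and 481 lower, or 1210 and 197 when libraries were scaled by total counts alone), so the share called was close to that of all genes. The number called higher moved with the setting, to 4 with total counts alone (Bcor, Rnf2, Rybp and Usp7), 2 without BcorWT library 2 (Bcor and Rybp) and 0 with GC correction. The 0 lower genes were also 0 with edgeR, with DESeq2 and at an unadjusted p-value under 0.05. At that unadjusted threshold 5 of 10 were higher, beside 13.8% of all genes upward and 11.5% downward. With the replicate block and GC correction, 1 of 10 was higher at that threshold. At the looser threshold stated by the study (log2 fold change beyond 0.5 in either direction and p under 0.05, read here as unadjusted), Bcor and Rybp passed, 2 of 10 beside 11.1% of all genes in that direction. Fold changes were positive for 10 of 10 genes, beside 50.4% of all genes, with a median log2 fold change of 0.41 against 0.0043 for all genes. Without BcorWT library 1, 8 of 10 were positive and the median was 0.23, and with the replicate block and GC correction 8 of 10 were positive with a median of 0.21. In 5 genes (Bcor, Rnf2, Yaf2, Usp7 and Skp1a) each BcorΔE9-10 library lay above both BcorWT libraries, beside 22.5% of all genes, and no gene of the complex lay below both, beside 20.3%. The summed level of the 10 genes was 340, 358 and 361 CPM in BcorΔE9-10 and 255 and 304 CPM in BcorWT. BcorWT library 1 gave the lower control value for 8 of the 10 genes, all but Pcgf1 and Kdm2b. QuantSeq counts follow transcript ends and not length. Levels are compared between groups here, and between genes only as shares within paralogue pairs.

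**Figure D2:**
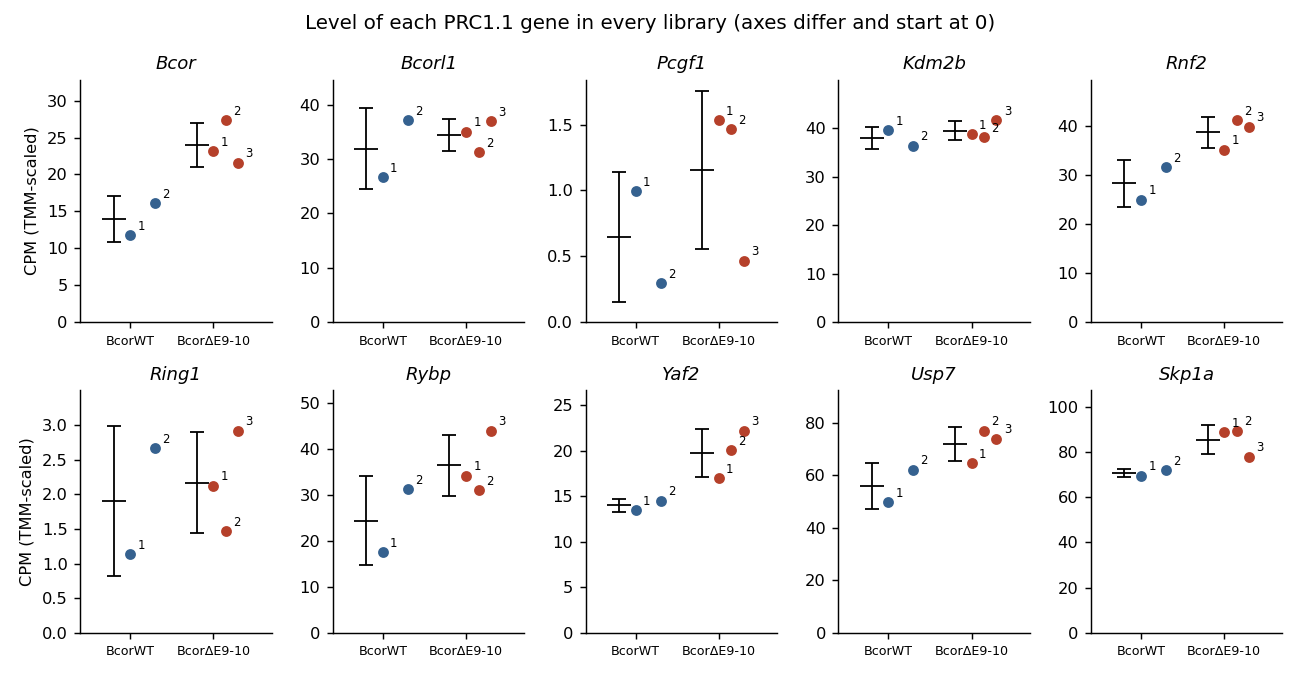
Level of each PRC1.1 gene in CPM after TMM scaling (vertical axes start at 0 and differ between genes), with 1 point per library, numbered by replicate, in blue for BcorWT (n = 2) and red for BcorΔE9-10 (n = 3); the bars give mean ± SD. The groups are apart for Bcor, Rnf2, Yaf2, Usp7 and Skp1a and overlap for the other 5 genes.

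Bcor is the subunit that, together with Pcgf1, tethers Kdm2b and Skp1 to the catalytic core, and it is the gene targeted in these mice. Its level was 23.1, 27.4 and 21.6 CPM in the BcorΔE9-10 libraries and 11.8 and 16.1 CPM in the BcorWT libraries. Transcript ends of the targeted gene were thus more abundant in each deleted library than in either control, with group means of 24.0 ± 2.99 CPM (SD, n = 3) and 13.9 ± 3.08 CPM (SD, n = 2). The fitted difference was 0.78 on a log2 scale (SE 0.218, 95% interval 0.32 to 1.24, limma adjusted p = 0.0313). Leaving out any 1 BcorΔE9-10 library kept the fold change between 0.70 and 0.84, but the call was sensitive to leaving out a library. It was lost without BcorΔE9-10 library 1 (log2 fold change 0.80, adjusted p = 0.0553), library 2 (0.70, adjusted p = 0.0892) or library 3 (0.84, adjusted p = 0.0521), and without BcorWT library 1 (0.54, adjusted p = 0.272). Without BcorWT library 2 it was kept (1.01, adjusted p = 0.0260). It was also lost with GC correction (0.39, adjusted p = 0.287) and with the replicate block and GC correction (0.46, adjusted p = 0.253). No other annotated gene overlaps the last 300 bases of Bcor and no 30-base word of that stretch occurs in another gene.

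Bcorl1, the paralogue that can take the place of Bcor in the complex, is also X-linked (chrX:48341358-48408049, plus strand). It was measured at 35.0, 31.3 and 37.0 CPM in BcorΔE9-10 and at 26.6 and 37.1 CPM in BcorWT, so the higher control lay above all 3 deleted libraries and the groups overlapped. Its log2 fold change was 0.14 (95% interval -0.23 to 0.51, adjusted p = 0.667), and it was -0.11 without BcorWT library 1 and 0.38 without library 2. The share of Bcor in the counts of the pair compares both genes within a library and does not depend on the scaling of libraries; the ends of the pair differ in GC content (26.0% and 33.7%), whose part in the share was not tested. Bcor held 39.8% (95% Wilson interval 35.5 to 44.1), 46.7% (41.6 to 51.8) and 36.9% (32.7 to 41.2) of the pair in BcorΔE9-10, and 30.6% (25.4 to 36.4) and 30.3% (25.8 to 35.2) in BcorWT. The shares of the deleted libraries all lay above those of the controls, at 41.1% ± 5.04 (SD, n = 3) against 30.5% ± 0.247 (SD, n = 2), a difference of 10.6 percentage points. An exact two-sided permutation test gave p = 0.1, the smallest value that 3 against 2 libraries allow, and 0.3 after Benjamini-Hochberg adjustment over the 3 paralogue pairs compared. The intervals cover only the counting error of reads within a library, and no molecular identifiers were counted.

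**Figure D3:**
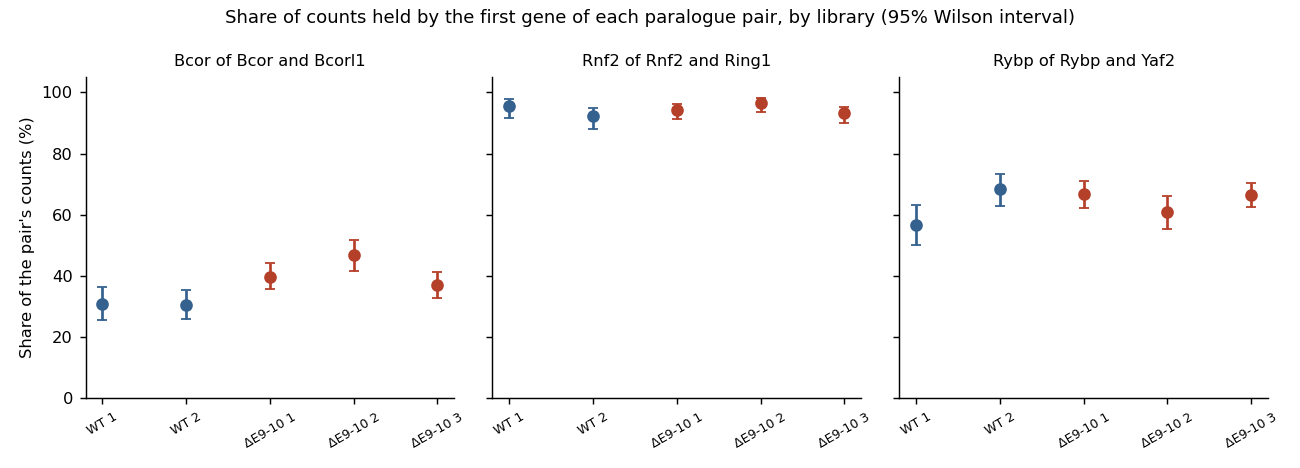
Share (%) of the first gene in the summed counts of each paralogue pair, 1 point per library with its 95% Wilson interval, in blue for BcorWT (WT) and red for BcorΔE9-10 (ΔE9-10). The Bcor share is 36.9 to 46.7% in the deleted libraries and 30.3 to 30.6% in the controls, whereas the ranges of the groups overlap for Rnf2 with Ring1 and for Rybp with Yaf2.

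Pcgf1 is the PCGF subunit that defines PRC1.1 and the direct partner of the domain removed from Bcor (chr6:83077869-83080855, plus strand). It was close to the limit of these libraries, with 13, 9 and 4 counts in BcorΔE9-10 and 7 and 2 in BcorWT. The ranges overlapped, and a difference of the size seen for Bcor was not detectable at this depth: the log2 fold change was 0.74 with a 95% interval of -1.18 to 2.65 (adjusted p = 0.655). Of the 30-base words in its last 300 bases, 25.1% also occur in Gm8930, so a part of its counts could belong to that gene or be missing from it.

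Kdm2b, the CpG-binding subunit (chr5:122870665-122989823, minus strand), differed least. Its level was 38.7, 38.1 and 41.6 CPM in BcorΔE9-10 and 39.5 and 36.4 CPM in BcorWT. The groups overlapped, the log2 fold change was 0.06 (SE 0.150, adjusted p = 0.850), and the 95% interval of -0.26 to 0.38 bounds a change in either direction. The whole of the last 300 bases of Kdm2b lies within Rnf34 on the opposite strand. If strand was not used in counting, reads of the 2 genes cannot be told apart, and Rnf34 itself stood at 24.5, 23.3 and 17.7 CPM against 16.9 and 16.4 CPM (adjusted p = 0.291). Skp1a encodes Skp1, which binds the F-box of Kdm2b and is shared with cullin ubiquitin ligases (chr11:52231995-52246858, plus strand). Skp1a was at 88.8, 89.4 and 78.0 CPM in BcorΔE9-10 and at 69.6 and 72.0 CPM in BcorWT. Each deleted library was above both controls, yet the log2 fold change of 0.26 did not pass the test (95% interval -0.01 to 0.54, adjusted p = 0.218). The predicted gene Gm26551 overlaps its last 300 bases on the other strand.

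Rnf2 and Ring1 are the alternative E3 ligases that transfer ubiquitin to H2A. Rnf2 (chr1:151458004-151500955, minus strand) was at 35.2, 41.2 and 39.9 CPM in BcorΔE9-10 and at 24.9 and 31.7 CPM in BcorWT. The groups did not overlap, and the log2 fold change was 0.46 (95% interval 0.09 to 0.82, adjusted p = 0.103), short of the threshold, and it was 0.28 without BcorWT library 1. Trmt1l, a tRNA methyltransferase-like gene on the other strand, overlaps the last 300 bases of Rnf2 and rose 2.22-fold with a limma adjusted p = 0.00178 (33.2 ± 3.84 CPM in BcorΔE9-10 and 14.7 ± 0.682 CPM in BcorWT, SD); its part in the Rnf2 value was not tested. Ring1 (chr17:34020792-34024680, minus strand) had 18, 9 and 25 counts in BcorΔE9-10 and 8 and 18 in BcorWT. The groups overlapped and the interval was wide (log2 fold change 0.31, 95% interval -0.92 to 1.54, adjusted p = 0.785). Rnf2 held 94.3, 96.6 and 93.2% of the counts of the pair in BcorΔE9-10 and 95.7 and 92.2% in BcorWT. The balance between the ligases differed by 0.739 percentage points, less than the SD within either group (1.72 and 2.41; exact two-sided permutation p = 0.8, adjusted p = 0.8).

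Rybp and Yaf2 are homologous H2A-ubiquitin-binding subunits that occupy the same surface of the catalytic core. Rybp (chr6:100228565-100287485, minus strand) was at 34.2, 31.1 and 44.0 CPM in BcorΔE9-10 and at 17.6 and 31.2 CPM in BcorWT. The second control thus matched the lowest deleted library, and the controls stood further apart than the group means. The log2 fold change was 0.64 (SE 0.226, 95% interval 0.16 to 1.12, adjusted p = 0.0845). The value depended on which control was used: it was 0.22 (adjusted p = 0.656) without BcorWT library 1 and 1.05 (adjusted p = 0.0108) without library 2. Yaf2 (chr15:93284278-93336935, minus strand) was at 17.0, 20.0 and 22.2 CPM in BcorΔE9-10 and at 13.5 and 14.5 CPM in BcorWT. All 3 deleted libraries were higher and the controls were close together, at 14.0 ± 0.730 CPM (SD, n = 2) against 19.7 ± 2.60 CPM (SD, n = 3), but the log2 fold change of 0.49 (95% interval 0.03 to 0.94) had an adjusted p of 0.166. Rybp held 66.8, 60.8 and 66.5% of the counts of the pair in BcorΔE9-10 and 56.6 and 68.3% in BcorWT. The control libraries bracketed all 3 deleted ones, and the difference of 2.26 percentage points was below the within-group SDs of 3.37 and 8.25 (exact two-sided permutation p = 0.7, adjusted p = 0.8).

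Usp7 encodes a deubiquitinase that associates with PRC1.1 and also acts on the p53 pathway (chr16:8689595-8792308, minus strand). It was at 64.5, 76.9 and 73.8 CPM in BcorΔE9-10 and at 49.7 and 62.1 CPM in BcorWT. The groups were separated by the small gap between BcorΔE9-10 library 1 and BcorWT library 2. The log2 fold change was 0.36 (95% interval 0.05 to 0.67, adjusted p = 0.134), and it was 0.19 without BcorWT library 1.

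Most PRC1.1 genes have AT-rich transcript ends, and fold changes in this comparison moved with that property across all genes. The GC content of the last 300 bases was 26.0% for Bcor, 29.3% for Rnf2, 33.3% for Skp1a, 33.7% for Bcorl1, 34.0% for Rybp and 34.7% for Yaf2. These 6 genes fall in the lowest of 5 GC bins, which holds 2447 genes with ends of up to 35.3% GC. In that bin, 283 genes were higher and 38 lower and the median log2 fold change was 0.22, whereas in the highest bin 55 were higher and 149 lower with a median of -0.12. Bcor, at 0.78, and Rybp, at 0.64, stood above the median of their bin, and Bcorl1, at 0.14, stood below it. That bin spans 15.3 to 35.3% GC, so its median is not matched to the 26.0% of Bcor. Kdm2b (40.0% GC) was at 0.059 in a bin with a median of 0.054. Usp7 (43.7% GC), Pcgf1 (47.0%) and Ring1 (50.7%) had positive fold changes in bins whose medians were -0.020 or -0.075. Pcgf1 and Ring1 were under 30 counts in every library. The part of GC content in these positions was not tested. When a trend on GC content was removed from each library, Bcor fell to a log2 fold change of 0.39, Rnf2 to 0.16 and Skp1a to 0.083, while Usp7 stood at 0.40 (adjusted p = 0.0988). The median over the 10 genes was then 0.36, and 0 of them passed the limma test, with 2 at an unadjusted p under 0.05.

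**Figure D4:**
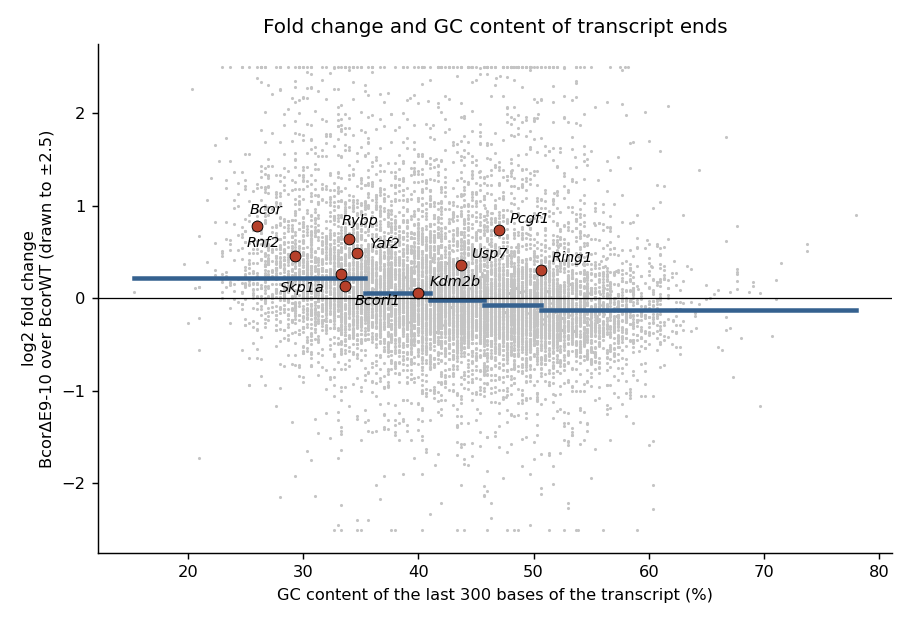
log2 fold change (BcorΔE9-10 over BcorWT, drawn to ±2.5) against GC content (%) of the last 300 transcript bases, with 1 grey point per tested gene, blue bars at the median of each GC bin and red points for the PRC1.1 genes. The bin medians fall from 0.22 to -0.12 with rising GC content, and 6 PRC1.1 genes lie in the lowest bin.

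The other genes of this pathway were described by 5 lists with 28 genes in all, each of which passed the filter. Of these, 1 was higher (Pcgf5), 2 were lower (Hdac4 and Nedd8) and 25 did not pass the test, beside 6.02% higher and 4.09% lower of all genes, which is about the same share, with 17 positive and 11 negative fold changes and a median of 0.055.

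The PCGF paralogues (Pcgf2, Pcgf3, Bmi1, Pcgf5 and Pcgf6) each define another PRC1 variant, and 1 of 5 rose with a list median of 0.51. Pcgf5, the subunit of PRC1.5, was at 49.7, 59.1 and 56.0 CPM in BcorΔE9-10 and at 26.9 and 34.9 CPM in BcorWT, which gave a log2 fold change of 0.83 with SE 0.166 and limma adjusted p = 0.00442. The groups were well apart, but without BcorWT library 1 the adjusted p was 0.0645 (log2 fold change 0.64), and after GC correction it was 0.0563 (0.51); its last 300 bases have 28.7% GC. Pcgf2, a subunit of canonical PRC1, had the highest fold change of the list at 1.05 on the log2 scale (adjusted p = 0.146), from 16 and 18 counts in BcorWT to 56, 26 and 40 in BcorΔE9-10. All BcorΔE9-10 libraries were above both controls for Pcgf2, Bmi1 and Pcgf5, 3 of 5 beside 22.5% of all genes.

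Among 8 genes for partners of Bcor (Bcl6, Mllt1, Mllt3, Cbx8 and 4 histone deacetylases), 0 rose and 1 fell, also with edgeR and DESeq2, with a median of -0.18. At an unadjusted p under 0.05, 1 was higher (Cbx8) and 2 were lower (Hdac1 and Hdac4), beside 13.8% and 11.5% of all genes. These counts were 0 and 1 with the replicate block, and also without BcorΔE9-10 library 3. Hdac1 was at -0.26 with all libraries and at -0.13 without BcorWT library 2. Bcl6, the repressor after which Bcor is named, was at 20.9 ± 3.48 CPM (SD, n = 3) and 23.3 ± 0.319 CPM (SD, n = 2), with a log2 fold change of -0.15 (adjusted p = 0.665). Hdac4, a class IIa deacetylase, was at 39.0, 35.5 and 51.3 CPM in BcorΔE9-10 and at 74.0 and 57.2 CPM in BcorWT. Its log2 fold change of -0.64 had an SE of 0.170 and a limma adjusted p = 0.0247, with no overlap between groups. The call was lost without BcorΔE9-10 library 1 (-0.59, adjusted p = 0.0795) or 2 (-0.54, adjusted p = 0.0905) and without BcorWT library 1 (-0.46, adjusted p = 0.204). It was also lost with GC correction (-0.47, adjusted p = 0.0886) and with total counts alone (-0.50, adjusted p = 0.0782), and its last 300 bases have 54.0% GC. Cbx8, a chromodomain subunit of canonical PRC1, had the largest positive value (0.60, adjusted p = 0.122) and was higher in all 3 deleted libraries.

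Of 5 genes for the Kdm2b paralogue and for the cullin ligases that also use Skp1 (Kdm2a, Cul1, Rbx1, Skp2 and Nedd8), Nedd8 was the only one called. Nedd8 was at 304, 291 and 276 CPM in BcorΔE9-10 and at 376 and 386 CPM in BcorWT, with a spread within groups that was small beside the gap. Its log2 fold change of -0.39 had an SE of 0.101 and a limma adjusted p = 0.0208. The fold change stayed between -0.42 and -0.37 when any 1 library was left out, but the adjusted p rose above 0.05 without BcorΔE9-10 library 1 (0.0508) or 3 (0.0809) and without BcorWT library 1 (0.0595) or 2 (0.0686). The call was also lost with total counts alone (log2 fold change -0.25, adjusted p = 0.125), with GC correction (-0.25, adjusted p = 0.140) and with the replicate block and GC correction (-0.21, adjusted p = 0.318), and its last 300 bases have 51.7% GC. Among the other 4, Skp2 had the largest value at 0.36 (adjusted p = 0.394). Without BcorWT library 1, Skp2 was at 0.14 and Kdm2a was higher, at 0.42.

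None of the 6 genes for enzymes or cofactors that remove H2A ubiquitin (Bap1, Asxl1, Asxl2, Usp16, Usp21 and Mysm1) and none of the 4 genes for proteins that bind the mark (Jarid2, Aebp2, Rsf1 and Dnajc2) passed the limma test, and none passed with edgeR or DESeq2. At an unadjusted p under 0.05, 0 of 6 and 1 of 4 (Aebp2, upward) passed, beside 13.8% of all genes upward and 11.5% downward. The list medians were -0.014 and 0.11. Usp16 was furthest from 0 in the first list at 0.56 (adjusted p = 0.272), and Asxl1, a cofactor of Bap1, was at -0.31 (adjusted p = 0.198). Other annotated genes overlap the last 300 bases of Usp16 and of Rsf1 on the other strand. Of the 30-base words in the last 300 bases of Dnajc2, 27.7% also occur in another gene. Aebp2, a cofactor of PRC2 that recognises the mark, was at 35.5, 36.2 and 41.4 CPM in BcorΔE9-10 and at 20.7 and 32.4 CPM in BcorWT, a log2 fold change of 0.55 (adjusted p = 0.0848). Without BcorWT library 1 it was 0.21 (adjusted p = 0.626), and without library 2 it was 0.87 (adjusted p = 0.0164). With all libraries it passed the unadjusted threshold of the study with Pcgf2, Pcgf5 and Cbx8, 4 of 28 genes beside 11.1% of all genes, and Hdac4 passed it downward, 1 of 28 beside 5.6%. The signs of Bap1 (-0.11) and Dnajc2 (-0.13) turned positive when libraries were scaled by total counts alone, a setting that moved the median of all genes by 0.14.

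**Figure D5:**
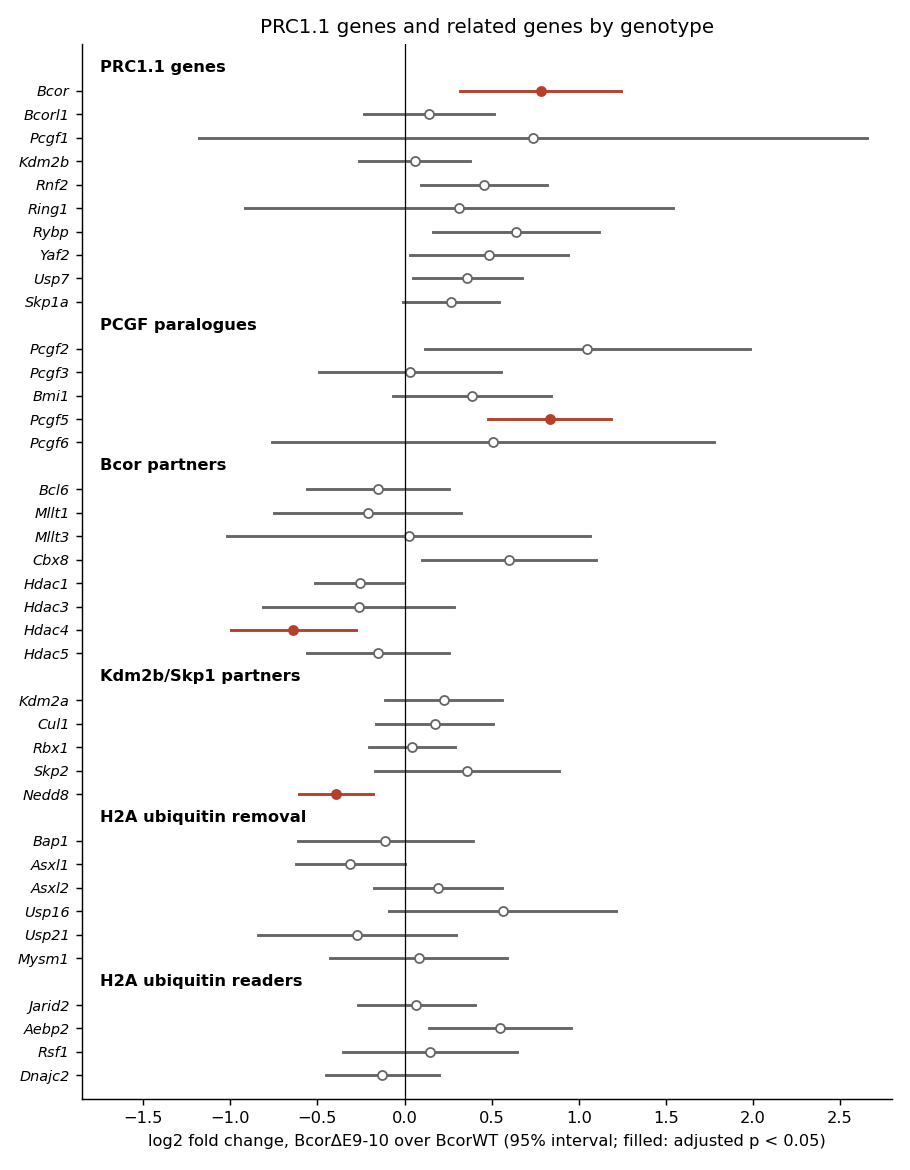
log2 fold change (BcorΔE9-10 over BcorWT) with its 95% interval for the 10 PRC1.1 genes and 28 related genes in 5 lists, with filled red points at a limma adjusted p under 0.05 and a vertical line at 0. Bcor and Pcgf5 are filled to the right of the line and Hdac4 and Nedd8 to the left, and the intervals of Pcgf1 and Ring1 are the widest among the PRC1.1 genes.

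The genes whose levels over the 5 libraries ran closest to those of Bcor were named by the root mean square difference of centred log2 CPM, among 8903 genes with a mean of at least 5 CPM. They were Gm7091 (0.0375), Usmg5 (0.0499), Atad5 (0.0528), Ugcg (0.0546) and Zfp131 (0.0550). Usmg5 encodes a small subunit of mitochondrial ATP synthase, Atad5 an unloader of the replication clamp, Ugcg the glucosylceramide synthase and Zfp131 a zinc finger protein. Their log2 fold changes lay between 0.74 (Zfp131) and 0.83 (Atad5). With 5 libraries in 2 groups, this likeness is a description and no test was made of it; none of the 9 other PRC1.1 genes was among these 5.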

How the data were processed

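KL cell RNA was made into QuantSeq 3′ libraries, 3 from BcorΔE9-10 and 2 from BcorWT. Per the submitters' processing notes and the study's methods, reads were demultiplexed with bcl2fastq (2.17.1.14), filtered on quality, trimmed with cutadapt, aligned to mm10 (GRCm38) with HISAT2 and assigned to genes with featureCounts of Subread (1.5.0-p3). Options for strand and for reads with several alignments are not given in the sources used here. The authors deposited raw counts, whole numbers of reads for each gene, without normalisation. Symbols were matched by gene identifier to GENCODE M21 (52403 of 52550 genes), which also supplied exons, overlaps and the GC content and 30-base words of the last 300 transcript bases.

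Chi-square per gene between libraries of the same group was 6.01 to 7.01 in BcorΔE9-10 and 11.6 in BcorWT. These lie above the value of 1 for counting noise, so no library was treated as a repeat deposit of another. Genes were kept with filterByExpr of edgeR (4.0.16; minimum count 10, minimum total 15), scaled by TMM and tested with limma (3.58.1) on voom values in R (4.3.3), two-sided, with Benjamini-Hochberg adjustment over all 11766 genes. CPM are per 1e+06 counts of the TMM-scaled total. Paralogue shares were tested by exact permutation over libraries. Alternatives were edgeR's quasi-likelihood test, DESeq2 (1.42.0), sample quality weights, other scalings and filters, counts drawn down to the smallest library, GC correction (lowess, span 0.3), leaving out each library and a replicate block. Scripts were tested on simulated data.

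The members and lists were chosen with earlier results of these data known. The text names all 10 members, called pathway genes and those with the largest change in each list, the 5 genes nearest in profile to a called member, and genes that overlap or share sequence with a member. Bcl6, Trmt1l, Rnf34 and marker genes are named for context. Some marker genes are not reported here by name.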

Additional observations from a re-analysis of the deposited data

How the results depend on the processing

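Of the 10 members, 6 kept a positive fold change in every alternative run, among them Yaf2 and Skp1a, which passed the threshold in none. Of the other 28 pathway genes, 18 kept their direction. Among members called higher (1 as reported), total counts alone gave 4, GC correction 0 and the replicate block with GC correction 0, and leaving out 1 library gave 0 to 2. At the study threshold (2 as reported) these settings gave 5, 0, 0 and 1 to 4, and the replicate block alone gave 1. For the other pathway genes, with 1 higher and 2 lower as reported, total counts alone gave 2 higher and 0 lower, GC correction 0 and 0, the block with GC correction 0 and 1, and leaving out a library 0 to 2 higher and 0 to 1 lower. The cause of these changes was not tested. Bcor kept its call in 10 of 16 alternatives, with adjusted p from 0.00807 to 0.287. Without 1 BcorWT library, the lone control is assumed to vary like the other group.

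Replicate numbers were shared by 2 pairs (correlation of deviations 0.0765 and 0.0817) and the labels do not say that they mark a litter or day, so they are only names. The replicate block called 891 genes higher and 563 lower, where the fit without it called 708 and 481, and Bcor had a log2 fold change of 0.86 with the block.

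Directions reversed in these cases, as log2 fold changes. With GC correction, Bcorl1 was at -0.034, Mllt3 at -0.12, Hdac5 at 0.025, Asxl2 at -0.22, Mysm1 at -0.37 and Rsf1 at -0.12. With the replicate block and GC correction, Bcorl1 was at -0.087, Kdm2b at -0.0059, Mllt3 at -0.42, Hdac5 at 0.014, Asxl2 at -0.28, Mysm1 at -0.41 and Rsf1 at -0.10. With the block alone, Ring1 was at -0.0061 and Mllt3 at -0.28. With counts drawn down, Kdm2b was at -0.029, Mllt3 at -0.035 and the Rnf2 share difference at -0.16 points. With total counts alone, Bap1 was at 0.032 and Dnajc2 at 0.017. Leaving out 1 library gave -0.11 to 0.38 for Bcorl1, -0.016 to 1.498 for Pcgf1, -0.29 to 0.90 for Ring1, -0.0062 to 0.065 for Pcgf3, -0.37 to 0.47 for Mllt3, -0.34 to 0.042 for Hdac5, -0.59 to 0.034 for Usp21, -0.013 to 0.18 for Mysm1, -0.087 to 0.22 for Jarid2, -0.22 to 0.53 for Rsf1 and -0.29 to 0.025 for Dnajc2. The share differences then ran from -0.97 to 2.44 points for Rnf2 and from -3.57 to 8.09 points for Rybp, and from 7.85 to 12.8 points for Bcor. Pcgf1 and Ring1, under 30 counts in every library, are limited by depth.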
